A study of Mus musculus with 4 samples.

Results

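The cytoplasmic ribosomal protein genes encode the proteins that, with ribosomal RNA, build the large and small subunits of the ribosome in the cytosol. They were taken from the gene symbols alone, as every symbol of the form Rpl or Rps with a number and, at most, a short suffix, plus Rpsa, Rplp0, Rplp1 and Rplp2. Pseudogene names and the Rps6k kinases were left out. This gave 83 of 32285 genes, 51 of the large and 32 of the small subunit, on 19 chromosomes. They made up 0.257% of the genes but 23.4% of all UMIs (unique molecular identifiers, each a captured transcript), 129293389 of 553057048. The rule used no measured value. At least 1 UMI was found for 82 members, and 79 had more than 100000 each. Rps24, a small-subunit protein, had the most UMIs (2891709). The fewest belonged to the copies Rpl39l (206) and Rpl3l (1280), and Rpl10l had 0 in all 4 libraries, which allows up to 0.00542 CPM (UMIs of a gene per 1e+06 UMIs).

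Droplet-based single-cell RNA libraries were made from bone marrow (BM) and spleen of mice carrying MLL-AF9 (MA9) leukemia, with 1 library per group and tissue (labelled Spleen-Ctrl, Spleen-shPrmt9, BM-Ctrl and BM-shPrmt9). All mice were of the C57BL/6J strain, 6-8 weeks old, and all received doxycycline (Dox) in the drinking water for 7 days. The leukemia cells held a Dox-inducible construct, either an shRNA against Prmt9, an arginine methyltransferase, or its control (Ctrl), so the host cells around them did not carry it, and the study's methods give a representative mouse of each group as the source of the cells. The comparison asked how each cell type of the leukemic marrow and spleen differed after Prmt9 knockdown. With a single library per group no replicate error exists: all intervals are exact 95% intervals that cover counting error only, no test was run, and a member or gene was counted as higher or lower only past 1.5-fold.

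Ribosomal proteins are made in matched amounts because every ribosome takes a single copy of nearly all of them. Their mRNAs are known for a run of pyrimidines at the very 5′ end, the terminal oligopyrimidine tract, through which growth signals act on their translation. Resting lymphocytes devote much of their mRNA to these genes, while neutrophils and red cell precursors lose ribosomes as they mature.

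The start sites of the members that stood out below are shown because the tract lies there. RefSeq start sites were matched for 63 of the 83 members (build GRCm38.p6). Where a gene had several start sites, the one with the longest run was kept, for members and all other genes alike. Each line gives the 20 bases before and the 20 bases from the annotated start, 5′ to 3′ on the gene's strand, and capitals mark the longest pyrimidine run that covers the start or lies within 5 bases of it, in full.
Rpl35, chr2:39005112-39005151, minus strand: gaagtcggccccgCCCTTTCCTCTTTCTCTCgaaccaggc
Rpl12, chr2:32961692-32961731, plus strand: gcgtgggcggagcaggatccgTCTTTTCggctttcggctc
Rpl13a, chr7:45128726-45128765, minus strand: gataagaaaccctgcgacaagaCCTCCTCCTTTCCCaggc
Rpl37, chr15:5116593-5116632, plus strand: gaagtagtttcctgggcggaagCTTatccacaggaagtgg
Rps2, chr17:24720043-24720082, plus strand: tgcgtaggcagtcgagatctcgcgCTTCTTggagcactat
Rpl7a, chr2:26910787-26910826, plus strand: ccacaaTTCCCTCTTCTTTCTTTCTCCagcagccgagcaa
Rps27, chr3:90213629-90213668, minus strand: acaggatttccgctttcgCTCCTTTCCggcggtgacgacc
Rps27l, chr9:66946066-66946105, plus strand: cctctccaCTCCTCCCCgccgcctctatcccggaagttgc
Rpl22, chr4:152324416-152324455, plus strand: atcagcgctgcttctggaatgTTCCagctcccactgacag
Rpl22l1, chr3:28805488-28805527, plus strand: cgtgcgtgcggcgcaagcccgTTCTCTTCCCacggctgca
Rps9, chr7:3704021-3704060, plus strand: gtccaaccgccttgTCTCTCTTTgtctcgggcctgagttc

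The run was 18 bases in Rpl35, 14 in Rpl13a and 21 in Rpl7a, but 3 in Rpl37. Its median length was 6 bases over the 63 members and 4 over the start sites of all 27025 genes in the table. Runs of at least 8 bases were found in 24 members (38.1%) and in 11.4% of all genes. Within 5 bases of the start, a C followed by at least 4 pyrimidines was found in 29 members (46.0%), in 20.6% of all genes and in 24.6% of the mitochondrial ribosomal protein genes with an entry. Only the gene's strand was read. A match is a description of the letters, since annotated starts can lie some bases from the start used in these cells. Because the start with the longest run was kept, run lengths also depend on how many starts a gene has, which was not compared. The printed starts of Rps2, Rps27l, Rpl7a and Rps9 lie inside the gene.

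The libraries held 8648 to 11315 barcodes and 84009744 to 188030429 UMIs, and 8065 to 11174 cells passed the filter (200 or more genes and no more than 20% of UMIs mitochondrial). Cells were placed in types by their own marker genes, none of them a member, and 3.88% to 15.4% of cells per library fitted no type. Pairs of libraries shared 15 to 35 barcodes. UMIs of Y-linked genes numbered 1 and 2 in the BM libraries but 17709 and 16431 in the spleen libraries, so the BM and spleen cells of a group were not those of 1 animal. Cells with at least 3 of Hoxa9, Hoxa10, Hoxa7, Hoxa5, Meis1 and Pbx3, the genes that MLL-AF9 keeps on, were called Hoxa-positive. Hoxa9 stood at 212.7 CPM in those of BM-Ctrl and 311.8 CPM in those of BM-shPrmt9. Hoxa10, Hoxa7 and Hoxa5 were also higher in BM-shPrmt9, but Meis1 (56.8 and 41.7 CPM) and Pbx3 (31.0 and 17.7 CPM) were lower. Their 10 leading genes held more neutrophil progenitor markers (Ctsg, Elane and Prtn3) than markers of their own (Hoxa9), so they are not named leukemia cells here. Prmt9, the targeted gene, was at 11.1 CPM (1052 UMIs) in Hoxa-positive cells of BM-Ctrl and 6.31 CPM (570 UMIs) in those of BM-shPrmt9. In T-like cells of the spleen, which carry no shRNA by the design, it was at 15.2 and 9.09 CPM (283 and 256 UMIs).

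Across cell types the members' share of UMIs ran from 3.16% to 35.1% in the Ctrl libraries, as the plot of shares by cell type shows. It was highest in T-like cells, at 35.1% in spleen and 31.8% in BM. Hoxa-positive cells of BM-Ctrl had 30.2%. B-like cells had 29.3% in spleen and 28.46% in BM. NK-like cells of the spleen had 28.32%, close to the B-like cells of BM. Lower shares were found in basophil-like cells (22.7%), plasmacytoid dendritic-like cells (20.6%) and monocyte/macrophage-like cells (20.04%), all in BM-Ctrl. Immature neutrophil-like cells had 10.4% and mature ones 4.80% in BM and 5.59% in spleen. Erythroid-like cells were lowest, at 4.19% in BM and 3.16% in spleen, where globin transcripts took 65.7% and 78.4% of UMIs. Without the UMIs of globin, immunoglobulin, mitochondrial genes, S100a8 and S100a9, erythroid-like cells had 12.5% and 15.1%, above the 6.40% of mature neutrophil-like cells in BM.

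**Figure D1:**
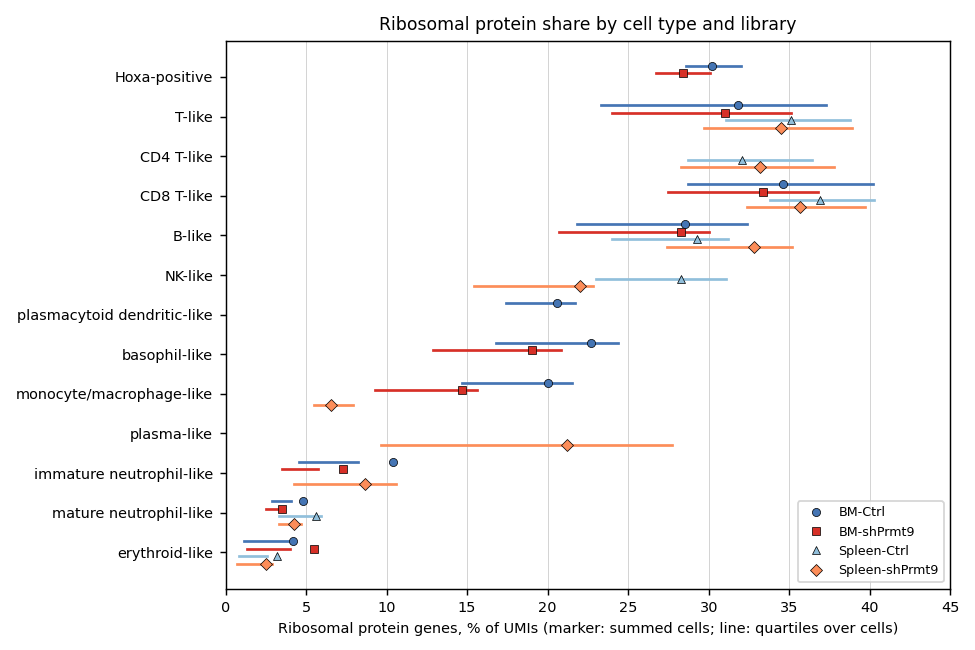
Share of UMIs from ribosomal protein genes (x axis, percent) for each marker-gated cell type (y axis) and library (color and symbol), with the marker at the value over summed cells and the line over the quartiles of single cells. T-like cells of the spleen lie at 35.1% and 34.5%, and erythroid-like cells at 2.49% to 5.50%.

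Single cells of a type varied widely around these shares. Among Hoxa-positive cells of BM-Ctrl the quartiles were 28.6% and 32.0%, while among T-like cells of BM-Ctrl they were 23.3% and 37.3%. In immature neutrophil-like cells of BM-Ctrl the summed share of 10.4% lay above the upper quartile of single cells (8.25%). Large-subunit members together had more UMIs than small-subunit members in every cell type and library, by 1.10 to 1.30 times. This ratio ranged far less than the share itself. The large-subunit members are 51 genes and the small-subunit members 32, so per gene the large-subunit members had fewer UMIs. T-like cells classed as CD8 had more member UMIs than CD4 cells in the spleen, at 36.9% against 32.1% in Spleen-Ctrl and 35.7% against 33.2% in Spleen-shPrmt9.

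The make-up of the member UMIs, each member's share of them, was far steadier than their total. Over the 14 combinations of cell type and Ctrl library, 77 members had at least 50 UMIs in each. Their highest share exceeded their lowest by a median of 1.77 times (quartiles 1.52 and 1.97), 58 varied by under 2-fold and 3 by over 4-fold. The widest was Rps27, a small zinc-finger protein of the small subunit, with 4.25% of member UMIs in mature neutrophil-like cells of Spleen-Ctrl and 0.701% in Hoxa-positive cells, a 6.06-fold range. Rpl31, of the large subunit, reached 0.938% in plasmacytoid dendritic-like cells and 0.199% in T-like cells of BM-Ctrl (4.71-fold). Rps9, of the small subunit, took 4.93% in mature neutrophil-like cells of BM-Ctrl and 1.05% in NK-like cells (4.70-fold). Rps27a, whose protein is made fused to ubiquitin, ranged 3.14-fold and was highest in the same neutrophils, at 4.57%. Rps25 (2.66-fold), Rpl35 (2.65-fold) and Rpl10 (2.59-fold) followed. The heat map of these shares shows that neutrophil-like, T-like and Hoxa-positive columns hold most of the departures.

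**Figure D2:**
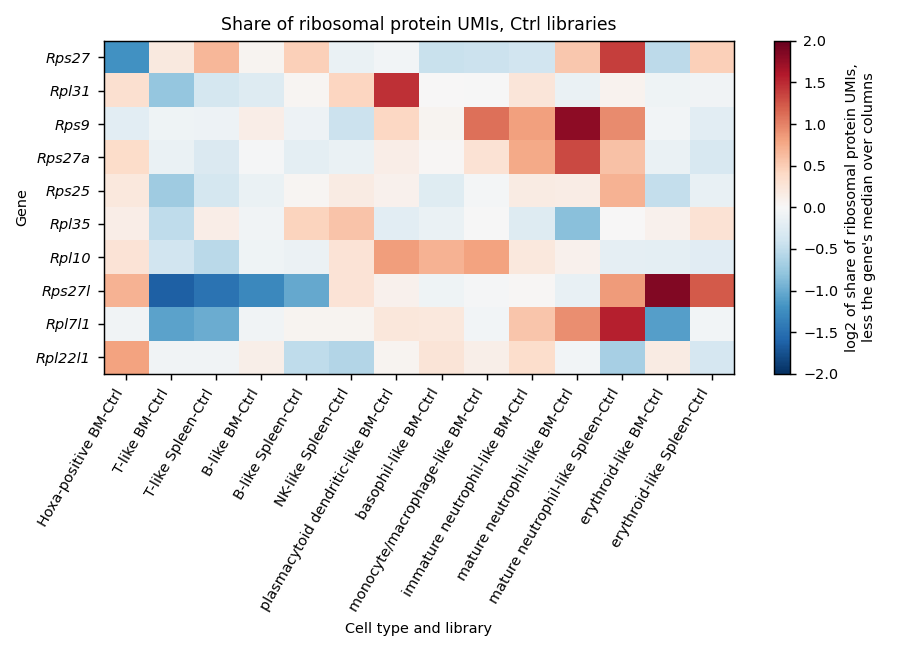
Share of member UMIs of 7 of the members with the widest range and of 3 paralog copies (rows) in the 14 combinations of cell type and Ctrl library (columns), as log2 less the gene's median over columns, with red above and blue below. Rps27 is lowest in Hoxa-positive cells, Rps9 and Rps27a are highest in mature neutrophil-like cells of BM-Ctrl, and Rps27l is highest in erythroid-like cells of BM-Ctrl.

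The paralog copies were the most uneven members. Rps27l, a close copy of Rps27 that is known as a p53 target, took 0.601% of member UMIs in erythroid-like cells and 0.0539% in T-like cells of BM-Ctrl, an 11.2-fold range. It stood at 811.9 CPM in Hoxa-positive cells of BM-Ctrl and at 171.3 CPM in T-like cells of the same library, while Rps27 stood at 2118 and 5899 CPM, so the pair ran in opposite directions between these types. Rpl22l1, the copy of Rpl22, was at 1091 CPM in Hoxa-positive cells and at 628.8 CPM in T-like cells of BM-Ctrl, against 2341 and 2099 CPM of Rpl22. Rpl7l1, a copy of Rpl7 with a known part in ribosome assembly, was at 98.0 CPM in Hoxa-positive cells and 51.5 CPM in T-like cells of BM-Ctrl, and Rpl7 was at 2237 and 2458 CPM. Rpl3l, the copy of Rpl3 known from muscle, reached 7.37 CPM in mature neutrophil-like cells of BM-Ctrl and 1.66 CPM in Hoxa-positive cells, against 254.6 and 3170 CPM of Rpl3. Rpl39l, known from testis, was at 2.31 CPM in T-like cells of Spleen-Ctrl beside 5860 CPM of Rpl39, and Rpl10l stayed at 0 beside 3235 CPM of Rpl10 in Hoxa-positive cells. Rps4x had 3538 CPM in Hoxa-positive cells. Rpl36a had 2157 CPM there, and its copy Rpl36al, outside the symbol rule, had 1600 CPM. Reads shared between near-identical copies and pseudogenes can be split by the counting, so single values of these pairs are uncertain.

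In Hoxa-positive cells of BM, the members took 30.2% of UMIs in BM-Ctrl and 28.4% after knockdown, a ratio of 0.939 (0.939–0.940) over 1529 and 1513 cells with median depths of 59890 and 55886 UMIs. Of 81 members tested, 58 had ratios below 1 and 23 above, with a median log2 ratio of -0.10 against 0.03 over all 12761 genes. Past 1.5-fold, 1 member was higher and 3 were lower, where 20.1% of all genes were higher and 14.3% lower. In these cells the neutrophil transcripts S100a8 and S100a9 summed to 3514 CPM in BM-Ctrl and 13986 CPM in BM-shPrmt9. Without them and the globin, immunoglobulin and mitochondrial UMIs, the shares were 31.5% and 29.9%. The part of S100a8 and S100a9 alone was not tested. The exception was Rpl29, a small, strongly basic protein of the large subunit, which stood at 2585 CPM in BM-Ctrl and 718.9 CPM in BM-shPrmt9, a ratio of 0.278 (0.276–0.280). Rpl35, a protein at the exit of the nascent peptide tunnel, was at 2749 and 1700 CPM (0.619, 0.615–0.622). Rpl12, of the stalk base where factors bind, was at 4261 and 2829 CPM (0.664, 0.660–0.667). Rpl22l1 (0.688) and Rpl13a (0.690), the latter of the large subunit and known for a second role in interferon-γ-driven repression of translation, came next and did not pass the fold. Rpl37, a zinc-finger protein of the large subunit, was the member past the fold in the other direction, at 4423 and 7132 CPM (1.61, 1.61–1.62). Rpl8 (1.35), Rpl30 (1.24), Rpl41 (1.23) and Rpl7l1 (1.20) had the next highest ratios. Rpl35 and Rpl13a have long runs at their starts and Rpl37 a short one, as printed above. Over the tested members with a matched start site, the median log2 ratio was -0.11 in the 29 with the tract and -0.10 in the 32 without. Rpl29 was not among these.

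Single Hoxa-positive cells of the 2 libraries overlapped little in Rpl29, as the histogram of Rpl29 per cell shows. In BM-Ctrl the median cell had 2574 CPM (quartiles 2352 and 2823), and in BM-shPrmt9 it had 613.3 CPM (quartiles 345.0 and 887.3). Above 1600 CPM, a bound chosen after the values were seen, lay 1513 of 1529 cells in BM-Ctrl and 46 of 1513 (3.04%) in BM-shPrmt9. With every cell thinned to 1000 UMIs, 93.1% and 43.7% of cells held an Rpl29 UMI (unthinned, all 1529 cells and 99.6%). In a clustering of cells made without the members, most Hoxa-positive cells fell in different clusters in the 2 libraries (cluster 1 with 65.0% in BM-Ctrl, cluster 26 with 51.1% in BM-shPrmt9), yet cluster 0, which held 458 and 436 of them, had 2609 and 806.4 CPM. Among the clusters of BM-shPrmt9, cluster 12 (235 cells) was lowest with 229.4 CPM. Cluster 6 (60 cells) was highest with 1749 CPM, and its Rpl37 stood at 4869 CPM, near that of BM-Ctrl. Lymphocytes of the same marrow differed little: T-like cells had 2170 and 2058 CPM and B-like cells 2072 and 2008 CPM. Immature neutrophil-like cells went from 874.7 to 321.9 CPM (0.368, 0.357–0.379) and mature ones from 335.3 to 204.2 CPM (0.609, 0.586–0.633). Rpl37 per cell ran higher throughout in Hoxa-positive cells, with quartiles of 3900 and 5016 CPM in BM-Ctrl and 6387 and 7889 CPM in BM-shPrmt9.

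**Figure D3:**
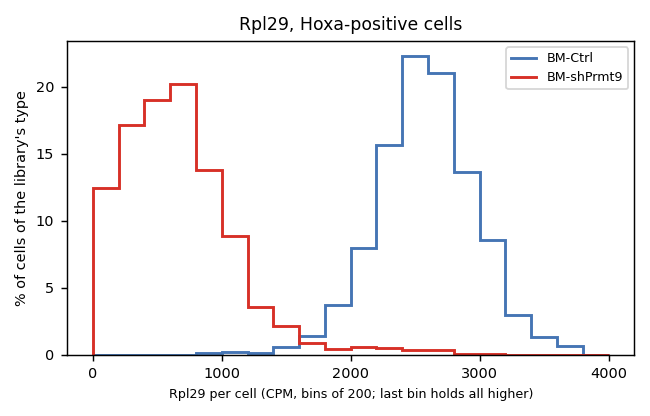
Distribution over single Hoxa-positive cells of Rpl29, with CPM per cell on the x axis, percent of the type's cells on the y axis and a line for each BM library. Most cells of BM-Ctrl lie above 1600 CPM (1513 of 1529) and few of BM-shPrmt9 do (46 of 1513).

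In T-like cells, the share was near level in both tissues, at 31.8% and 31.0% in BM (ratio 0.974, 0.970–0.977) and 35.1% and 34.5% in spleen (0.984). The spleen ratio turned to 1.04 under TMM scaling, which sets libraries against each other by the trimmed mean of all gene ratios in place of total UMIs. Within clusters with at least 50 of these cells in both libraries, the share was lower after knockdown. It was 33.1% and 30.7% in cluster 10 of BM and 27.3% and 23.7% in cluster 22 of spleen. Cluster 22 held only 4.35% and 6.17% of the T-like cells of spleen. Most of the others lay in clusters 10 and 25 in Spleen-Ctrl, with shares of 36.8% and 34.4%. In Spleen-shPrmt9 they lay in clusters 2 and 30, with 36.1% and 34.9%. In BM-shPrmt9, cluster 2 held 28.6% of the T-like cells, with a share of 35.9%. In BM, 1 of 80 members was higher past the fold and 0 lower, where 8.36% of all genes were higher and 8.01% lower. In spleen 1 of 81 was higher and 2 lower, against 8.89% and 16.6% of all genes, and under TMM scaling 1 was higher and 1 lower. Rpl7l1, with 59.6 and 83.6 CPM in spleen (1.40), Rps12, a small-subunit protein with 4016 and 5172 CPM (1.29), Rps29 (1.14) and Rpl35 (1.11) lay toward the high end in spleen and did not pass the fold. Among members with at least 50 UMIs in each library, the lowest ratio was that of Rpl3, a protein near the catalytic center of the large subunit, with 3268 and 2163 CPM in spleen (0.662, 0.655–0.669, an interval that includes the 1.5-fold bound) and 3356 and 2727 CPM in BM. It did not pass the fold under TMM scaling. The other member lower past the fold in spleen was the rare Rpl39l, from 43 and 39 UMIs (0.600, 0.379–0.948). Rpl22l1 (0.763), Rps2 (0.812) and Rps18 (0.821) came next in spleen without passing the fold.

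Rpl3 was lower at each quartile of single T-like cells. In spleen the median cell had 3094 CPM in Ctrl (quartiles 2327 and 3874) and 1888 CPM in shPrmt9 (quartiles 1219 and 2646). In BM it had 3005 CPM (quartiles 2041 and 4144) and 2381 CPM (quartiles 1524 and 3300), so the cells of both groups overlapped in each tissue. With cells thinned to 1000 UMIs, 93.3% of T-like cells of Spleen-Ctrl and 79.8% of those of Spleen-shPrmt9 held an Rpl3 UMI (before thinning nearly all and 97.6%). CD8 cells of the spleen had 3644 and 2362 CPM and CD4 cells 2632 and 1978 CPM. Most T-like cells fell in different clusters in the 2 spleen libraries, and in cluster 22, present in both, Rpl3 stood at 2188 and 1576 CPM.

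**Figure D4:**
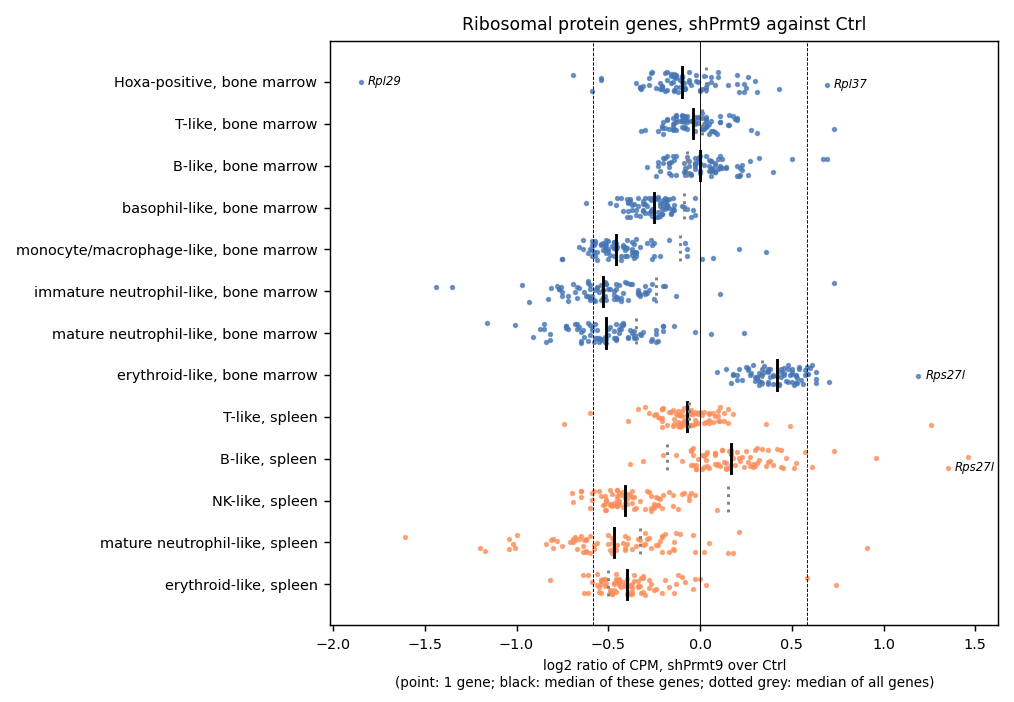
Log2 ratio of CPM, shPrmt9 over Ctrl (x axis), of each tested member (points) in the 13 combinations of cell type and tissue (rows), with the members' median in black, the median of all tested genes dotted and the 1.5-fold bounds dashed. Most members stay close together in T-like and B-like cells, with Rps27l at 2.55-fold in B-like cells of spleen, and Rpl29 lies alone at 0.278 in Hoxa-positive cells.

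B-like cells of the spleen had a higher share after knockdown, at 29.3% in Spleen-Ctrl and 32.8% in Spleen-shPrmt9 (ratio 1.12), while in BM the share was 28.5% and 28.3% (0.995). Of 81 members in spleen, 5 were higher and 0 lower past the fold, against 10.4% and 25% of all genes, and the median log2 ratio was 0.17 against -0.18. Under TMM scaling 13 were higher and 0 lower. In BM 2 of 80 were higher and 0 lower, against 8.82% and 15.1%. Rps27l stood at 240.5 and 612.4 CPM in spleen (2.55, 2.49–2.60) and at 194.8 and 313.3 CPM in BM (1.61, 1.42–1.81). Rps2, at the entry of the mRNA channel of the small subunit, stood at 3509 and 6842 CPM in spleen (1.95, 1.94–1.96) and at 2962 and 4712 CPM in BM (1.59, 1.54–1.64). Rpl7l1 (1.66) and Rpl7a (1.53), a large-subunit protein, followed. Rps27, the copy partner of Rps27l, had the lowest ratio, with 6610 and 5079 CPM (0.768), ahead of Rpl22l1 (0.809), Rpl17 (0.872) and Rps7 (0.934). The runs of Rps27 and Rps27l, printed above, are 9 bases long in both. That of Rps27 covers the annotated start and that of Rps27l lies wholly before it. Whether the runs bear on the ratios was not tested. Depth moved with this result: B-like cells had a median of 6556 UMIs in Spleen-Ctrl and 16402 in Spleen-shPrmt9, and their number was 6136 and 1472. The same held in BM, with medians of 4717 UMIs over 1059 cells in BM-Ctrl and 10224 UMIs over only 89 cells in BM-shPrmt9. The clusters moved as well, with 73.7% in cluster 11 in Spleen-Ctrl, but 53.1% in cluster 17 and 35.7% in cluster 24 in Spleen-shPrmt9. Within the clusters with at least 50 of these cells in both libraries, the members' share was lower after knockdown. It was 32.4% and 30.9% in cluster 7 and 31.7% and 30.8% in cluster 17. In cluster 11 of Spleen-Ctrl the share was 27.8%, and in cluster 24 of Spleen-shPrmt9 it was 34.9%. Rps2 stood at 5707 and 6223 CPM in cluster 7 and at 3109 and 4457 CPM in cluster 17. In cluster 24 of Spleen-shPrmt9 Rps2 stood at 8904 CPM and Rps27l at 934.5 CPM. With cells thinned to 1000 UMIs, the shares were 27.7% and 31.0% in spleen and 27.3% and 25.3% in BM. Beyond this, the part of depth and cluster in the result was not tested.

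NK-like cells of the spleen had the lower share after knockdown, at 28.3% over 89 cells and 22.0% over 158 cells (0.777). Of 80 members 0 were higher and 8 lower, against 20.8% and 9.8% of all genes, with a median log2 ratio of -0.41 against 0.15. Under TMM scaling 25 were lower. Rps18 (0.617), Rps27l (0.618), Rps15 (0.636), Rpl12 (0.637), Rpl13 (0.659), Rpsa (0.663) and Rps19 (0.664) were among the 8, which include small-subunit proteins of the head (Rps15, Rps18, Rps19) and Rpsa, also known as the laminin receptor. The median depth of these cells was 12892 UMIs in Spleen-Ctrl and 8890 in Spleen-shPrmt9, and 1 cluster held 97.8% and 96.2% of them. Within that cluster the shares were 28.4% and 21.9%.

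Monocyte/macrophage-like cells of BM had 20.04% and 14.7% (0.732) over 451 and 164 cells. Their median depth was 11521 and 16418 UMIs. Their markers differed in both directions, with Fn1 at 1388 and 397.9 CPM and Ccr2 at 1449 and 518.6 CPM. Ly6c2 stood at 1560 and 4939 CPM and Adgre1 at 68.3 and 151.6 CPM. The part of depth and of these markers in the result was not tested. Of 81 members 0 were higher and 11 lower, against 11.6% and 17.6% of all genes, with a median log2 ratio of -0.46 against -0.11, and 3 were lower under TMM scaling. Rps9 (0.593) and Rpsa (0.596) had the lowest ratios of the 11. Basophil-like cells of BM had 22.7% and 19.0% (0.837), with 0 of 80 members higher and 1 lower, Rpl12 (0.653), against 7.78% and 10.1% of all genes. In the basophil-like cells the neutrophil transcripts S100a8 and S100a9 summed to 1621 CPM in BM-Ctrl and 30505 CPM in BM-shPrmt9, and in monocyte/macrophage-like cells to 1673 and 4308 CPM. Without these and the globin, immunoglobulin and mitochondrial UMIs, the shares were 23.5% and 20.3% in basophil-like cells. In monocyte/macrophage-like cells they were 20.7% and 15.1%. The part of S100a8 and S100a9 alone was not tested.

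In neutrophils of BM the share was lower after knockdown, at 10.4% and 7.28% in immature (0.699) and 4.80% and 3.49% in mature cells (0.728), except that the ratio of immature cells was 1.31 when cells were classed by clusters. Of 81 members in immature cells, 1 was higher and 29 lower, against 6.41% and 19.7% of all genes, and in mature cells 0 were higher and 28 lower, against 4.7% and 25.5%. Under TMM scaling 4 and 2 were lower, and this scaling shifted all genes by 0.25 and 0.37 on the log2 scale. Rpl29 (0.368), Rpl35 (0.393), Rpl12 (0.509) and Rpl22l1 (0.525) had the lowest ratios in immature cells, and Rpl12 (0.448), Rpl22l1 (0.495), Rpl36a (0.532) and Rpl35 (0.546) in mature ones. S100a8 and S100a9 summed to 240595 and 310667 CPM in mature cells. Mature neutrophil-like cells of the spleen, 70 and 136 in number, had 5.59% and 4.22% (0.755), a direction that turned under TMM scaling (1.10). Their median depth was 3334 and 9812 UMIs, and S100a8 and S100a9 summed to 124322 and 255116 CPM. The marker Retnlg was detected in 18.6% and 65.4% of them. The part of these differences in the result was not tested. Of 80 members 1 was higher and 31 lower, against 11.5% and 33.7% of all genes, and under TMM scaling 5 were higher and 3 lower. The lowest ratios there were those of Rps27l (0.327, 0.223–0.483, from 48 and 69 UMIs), Rpl14 (0.436) and Rpl12 (0.445).

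Erythroid-like cells differed in opposite directions in the 2 tissues, at 4.19% and 5.50% in BM (1.31) and 3.16% and 2.49% in spleen (0.787), but under TMM scaling the spleen ratio was 1.27. In BM 8 of 80 members were higher and 0 lower, against 31.2% and 4.02% of all genes, and under TMM scaling 1 was higher and the share ratio was 1.06. In spleen 1 was higher and 6 lower, against 8.63% and 44.2%, and under TMM scaling 8 were higher and 0 lower. Globin transcripts took 65.7% and 57.4% of UMIs in BM and 78.4% and 82.5% in spleen, moving against the members' share. Without globin and the other abundant transcripts named above the BM shares were 12.5% and 13.4% (1.07) and the spleen shares 15.1% and 14.6% (0.962). Rps27l was the highest member in BM, at 251.8 and 573.7 CPM (2.28, 2.13–2.44), and Rpl3 the lowest in spleen, at 258.5 and 146.4 CPM (0.566, 0.517–0.621).

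Over the 13 comparisons, which share libraries within a tissue, 26 members never passed the fold. Rpl12 was lower past it in 7, and Rpl13, Rps18 and Rpsa in 5 each. Of all genes tested in a comparison, 4.02% to 44.2% were lower past the fold and 4.7% to 31.2% higher. How often other genes passed it over the 13 comparisons was not counted, so these counts only describe the members. For cell types measured in both tissues, with separate libraries, the members' log2 ratios in BM and spleen had a Pearson r of 0.694 and a Spearman rho of 0.533 over 80 members in T-like cells, and 0.861 and 0.797 over 80 members in B-like cells. They were 0.568 and 0.516 over 77 members in mature neutrophil-like cells, and 0.269 and 0.0255 over 79 members in erythroid-like cells. These are correlations across genes, which are not independent replicates, and all genes of a library share its depth and composition.

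**Figure D5:**
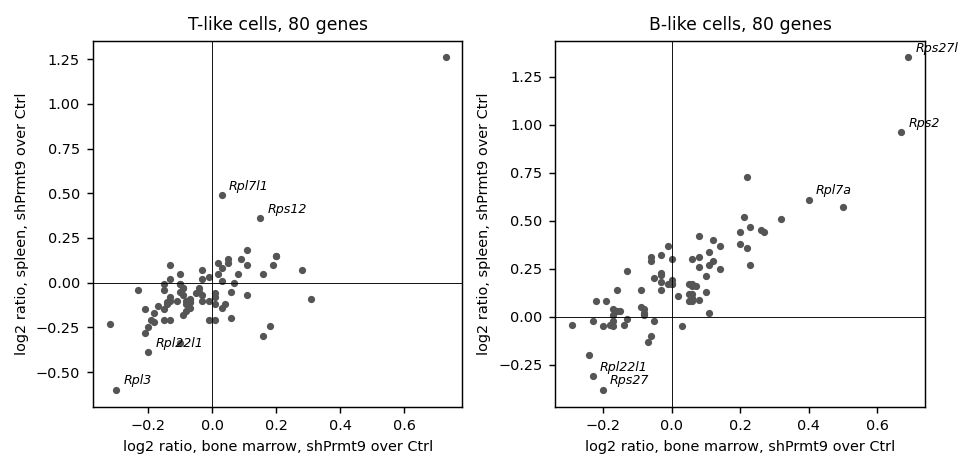
Log2 ratio of CPM, shPrmt9 over Ctrl, of each member in BM (x axis) against spleen (y axis) for T-like cells (left) and B-like cells (right), with 1 point per member (80 in each panel). In T-like cells Rpl3 lies below 0 in both tissues, and in B-like cells Rps27l and Rps2 lie above the other named members in both.

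Other genes of ribosome making and translation were read as lists, each by counts past the fold and by the median log2 ratio. Medians of all genes tested were 0.03 in Hoxa-positive, -0.11 in monocyte/macrophage-like and 0.15 in NK-like cells, -0.06 and 0.01 in T-like cells of spleen and BM, and -0.18 and -0.07 in B-like cells of spleen and BM. Past the fold, 20.1% of all genes were higher and 14.3% lower in Hoxa-positive cells. These shares were 11.6% and 17.6% in monocyte/macrophage-like and 20.8% and 9.8% in NK-like cells. In T-like cells they were 8.89% and 16.6% in spleen and 8.36% and 8.01% in BM. In B-like cells they were 10.4% and 25% in spleen and 8.82% and 15.1% in BM. Of 24 ribosome biogenesis genes, which encode nucleolar factors that process ribosomal RNA, 19 of 24 were higher and 0 lower in B-like cells of the spleen (median 0.85), 8 of 24 were higher in those of BM (0.51), and 16 of 23 tested were lower in NK-like cells (-0.83). In Hoxa-positive cells 3 of 24 were lower (-0.29) and in T-like cells of the spleen 2 of 24 were (-0.15). Both are smaller parts than the 14.3% and 16.6% of all genes. In neutrophil-like cells of BM, 13 of 23 were lower in immature cells (-0.68, all genes -0.24) and 17 of 22 in mature ones (-0.84, all genes -0.35). Of all genes 19.7% and 25.5% were lower there. The 78 mitochondrial ribosomal protein genes, which build the separate ribosome of mitochondria, had 31 higher and 0 lower in B-like cells of the spleen (median 0.51). In Hoxa-positive cells 0 were higher and 13 lower (-0.07), the latter near the 14.3% of all genes. Of 8 elongation factors and related translation genes 3 were higher in B-like cells of the spleen (0.40), 4 were lower in NK-like cells (-0.55), and 1 was higher in Hoxa-positive cells (-0.15). The ribosome components that the symbol rule leaves out, among them Fau, Rpl36al and Rack1, had none past the fold in Hoxa-positive, T-like, B-like or NK-like cells, and 1 lower in monocyte/macrophage-like cells. Of 14 regulators of ribosomal protein mRNA translation, such as Larp1, which binds the tract, and the growth kinase Mtor, 3 were higher in B-like cells of the spleen (-0.01), 2 were lower in NK-like cells (-0.02), and 2 were lower in Hoxa-positive cells (0.11).

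The 8 snoRNA host genes, whose spliced transcripts start with pyrimidine runs as the members' do, had 1 higher and 6 lower in Hoxa-positive cells (median -0.74) and 6 higher and 0 lower in T-like cells of the spleen (0.73). In T-like cells of BM 3 of 7 tested were higher (0.41), and in monocyte/macrophage-like cells 6 were lower (-0.88). The shares of all genes past the fold in these comparisons are given above. Of 15 proliferation genes 9 were higher in Hoxa-positive cells (0.74) and 10 in B-like cells of the spleen (0.88), while 11 were lower in T-like cells of the spleen (-1.36) and 11 in monocyte/macrophage-like cells (-1.71). Interferon-stimulated genes were higher in each of these comparisons, with 14 of 14 tested past the fold in Hoxa-positive cells (median 3.13) and in spleen 13 of 14 in T-like (2.04) and 13 of 14 in B-like cells (2.78). These values stand beside the members' ratios, and whether they bear on them was not tested.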

How the data were processed

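The authors deposited 4 filtered matrices of raw UMI counts per gene and cell, made from 3′ single-cell libraries with Cell Ranger (6.1.1 in the submitters' notes, 6.0.2 in the matrix headers) on mm10. The submitters give a v2 kit. Members and gene lists were chosen with earlier results of these data known. Barcodes needed 200 or more genes and no more than 20% of UMIs from mitochondrial genes, and no doublet caller was run. A cell joined the type whose markers scored highest, with at least 3 markers detected (2 for lists of up to 4), a score of at least 0.15 and a lead of 0.1. These bounds were set after the cells were seen. Hoxa-positive cells stand for the planned MA9-like gate, and types with under 50 cells were not compared. UMI counts were summed per type and library. Shares have exact Clopper-Pearson intervals and ratios exact conditional binomial ones. Genes with at least 50 UMIs over both libraries were compared.

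Named members were the 5 highest and 5 lowest ratios in Hoxa-positive cells of BM and, in spleen, T-like and B-like cells, the 8 widest shares, the paralog pairs and the extremes of UMIs. Members of other comparisons were named after their values were seen, as those past the fold or the lowest. Some members and list genes are not reported here by name. Clusters (31, Leiden) were made without the members. Python 3.11.15, NumPy 2.4.6, SciPy 1.17.1, scikit-learn 1.9.0, python-igraph 0.11.9, matplotlib 3.10.9, R 4.3.3 and edgeR 4.0.16 (TMM factors only) were used, and the fold calls were tested on simulated data.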

Additional observations from a re-analysis of the deposited data

Results flagged for a closer look

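The shPrmt9 over Ctrl ratio of the members' share went in opposite directions in BM and spleen for 2 cell types. In B-like cells it was 0.995 in BM and 1.12 in spleen, and in erythroid-like cells 1.31 in BM and 0.787 in spleen. The difference between tissues was not tested, since each tissue and group has 1 library, and for B-like cells the BM ratio lies within 0.927 to 1.0 under the other settings. For erythroid-like cells of the spleen the ratio ran from 0.719 to 1.28 under them.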

How the results depend on the processing

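No paired analysis was possible because each group has 1 library per tissue and the labels give no replicate numbers; leaving out a replicate was not possible for the same reason.

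Ratios of the members' share are given in the order Hoxa-positive, T-like, B-like, basophil-like, monocyte/macrophage-like, immature neutrophil-like, mature neutrophil-like and erythroid-like cells of BM, then T-like, B-like, NK-like, mature neutrophil-like and erythroid-like cells of spleen.

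As reported they were 0.939, 0.974, 0.995, 0.837, 0.732, 0.699, 0.728, 1.31, 0.984, 1.12, 0.777, 0.755 and 0.787. With TMM scaling they were 0.904, 0.963, 0.998, 0.903, 0.769, 0.834, 0.943, 1.06, 1.04, 1.26, 0.716, 1.10 and 1.27. With median of ratios scaling they were 0.898, 0.968, 1.0, 0.905, 0.769, 0.839, 0.945, 1.05, 1.05, 1.26, 0.710, 1.11 and 1.28. With cells thinned to 1000 UMIs they were 0.929, 0.979, 0.927, 0.870, 0.722, 0.763, 0.848, 1.19, 0.960, 1.12, 0.732, 0.844 and 0.844. As means over cells they were 0.927, 0.977, 0.942, 0.858, 0.733, 0.778, 0.854, 1.16, 0.959, 1.12, 0.724, 0.887 and 0.961. With no cell filter they were 0.939, 0.973, 0.995, 0.840, 0.732, 0.699, 0.728, 1.30, 0.983, 1.12, 0.778, 0.755 and 0.800. With 500 or more genes and no more than 10% of UMIs mitochondrial they were 0.939, 0.975, 0.992, 0.837, 0.732, 0.699, 0.726, 1.24, 0.989, 1.12, 0.778, 0.745 and 1.02. With 1 more marker and a lead of 0.2 they were 0.940, 0.979, 0.965, 0.828, 0.846, 0.665, 0.812, 1.23, 0.986, 1.09, 0.779, 0.732 and 0.925. Without globin, immunoglobulin, mitochondrial, S100a8 and S100a9 UMIs they were 0.948, 0.973, 0.994, 0.866, 0.731, 0.763, 0.801, 1.07, 0.973, 1.09, 0.772, 0.886 and 0.962. Without the 5% deepest cells they were 0.937, 0.980, 0.961, 0.858, 0.722, 0.733, 0.864, 1.10, 0.987, 1.15, 0.743, 0.876 and 0.719. With cells classed by clusters they were 0.945, 0.947, 0.993, 0.714, 1.31, 0.779, 1.21, 0.969, 1.11, 0.764, 0.539 and 0.855, with no value for basophil-like cells. Without the paralog copies they were 0.939, 0.974, 0.995, 0.837, 0.732, 0.700, 0.728, 1.31, 0.984, 1.12, 0.777, 0.755 and 0.784.

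In the same order, members past 1.5-fold in either direction numbered 4, 1, 2, 1, 11, 30, 28, 8, 3, 5, 8, 32 and 7. With TMM scaling they numbered 6, 1, 2, 0, 3, 5, 3, 1, 2, 13, 25, 8 and 8. With at least 10 UMIs they numbered 4, 1, 2, 1, 11, 30, 28, 8, 3, 5, 9, 32 and 7. With no filter beyond 1 UMI they numbered 4, 1, 3, 1, 11, 30, 28, 8, 3, 6, 9, 32 and 8. At a smaller bound (25% above Ctrl or the inverse) they numbered 10, 1, 4, 22, 67, 70, 67, 59, 7, 21, 53, 54 and 58. At 2-fold they numbered 1, 0, 0, 0, 0, 2, 2, 1, 1, 2, 0, 7 and 0.

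The ratio crossed 1 for immature neutrophil-like cells of BM by clusters, for B-like cells of BM, by a small margin, under median of ratios scaling, for T-like and mature neutrophil-like cells of spleen under both scalings, and for erythroid-like cells of spleen under both scalings and the stricter cell filter. TMM scaling moved the median of all genes by 0.70 (log2) in erythroid-like cells of spleen, 0.55 in mature neutrophil-like cells of spleen, 0.37 in those of BM, 0.25 in immature neutrophil-like cells, -0.31 in erythroid-like cells of BM, 0.17 in B-like cells of spleen, -0.12 in NK-like cells and 0.11 in basophil-like cells. Where a share moved, the cause was not tested. Doublets, free RNA and reads shared with pseudogenes were not resolved, and depth limits the rarest copies.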

Other observations

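Hoxa-positive cells of the spleen were too few to compare, at 22 in Spleen-Ctrl and 25 in Spleen-shPrmt9. Their member shares were 27.3% and 19.96%. Rpl29 stood at 2170 CPM (2256 UMIs) and 500.8 CPM (446 UMIs) and Rpl37 at 4088 and 4599 CPM.

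The following 3 cell types reached 50 cells in Spleen-shPrmt9 but not in Spleen-Ctrl. There the members took 21.2% of UMIs in plasma-like cells, 8.66% in immature neutrophil-like cells and 6.54% in monocyte/macrophage-like cells.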
